A study of Homo sapiens with 12 samples.

Results

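The genes described here are 50 interferon response and RNA sensing genes, out of 19775 genes with a named probe set on the array. Each member was represented by the probe set whose annotation gives exactly 1 symbol, that of the member, and which had the highest mean over the 12 arrays. All 50 members had such a probe set, 21 of them a single one and 29 several, 109 probe sets in all. Total RNA of OCI-Ly7 and Pfeiffer, established human lines of diffuse large B-cell lymphoma of the germinal centre type, was labelled with biotin and hybridised to Affymetrix U133 Plus 2.0 arrays. Cells grown in IMDM with serum had been transfected transiently, either with an siRNA against BCL6, a zinc finger repressor that keeps B cells in the germinal centre state, or with a control siRNA without a target, and were taken after 48 h. Each of the 4 groups had 3 arrays: OCI-Ly7 control, OCI-Ly7 with BCL6 siRNA, Pfeiffer control and Pfeiffer with BCL6 siRNA. For the Pfeiffer controls the sample titles name an shRNA and the sample descriptions an siRNA. All groups had thus been transfected, and untransfected cells were not analysed here. The labels do not state whether the 3 arrays of a group stem from separate cultures, and the p-values therefore cover the scatter among these RNA samples only, part or all of which may be technical.

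Interferons are cytokines that cells release when sensors in the cytoplasm or in endosomes meet foreign or misplaced nucleic acid. RNA helicases such as MDA5 (IFIH1) bind duplex RNA and signal through the mitochondrial adaptor MAVS to kinases that switch on interferon regulatory factors. Secreted interferon then acts through its receptors and JAK kinases on a complex of STAT proteins with IRF9, which binds the interferon-stimulated response element (ISRE) in promoters and drives many genes. Their products degrade or edit RNA, stop translation, block virus entry and release, or modify proteins with the ubiquitin-like ISG15. How much of this programme a cell shows without an infection differs between cell types.

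A few promoter stretches are printed here because they hold the ISRE, the element through which many of the members are known to be induced. RefSeq promoters (GRCh38.p14, 250 bases before to 50 after the start) were found for 39 of the 50 members, and IRF2, IRF7, OAS2, OASL, IFIT2, USP18, IFITM2, MX2, TRIM22, GBP2 and PML had no entry. The ISRE, searched on both strands as GAAA followed by any 2 bases and again GAAA, was in 24 of these 39 (61.5%), against 1195 of all 27305 genes with a promoter (4.38%). The members were chosen as interferon response genes, so this share is a description of the list. The following windows hold the ISRE in capitals, read 5′ to 3′ on the strand of the gene. The first 4 belong to members that fell in Pfeiffer after BCL6 siRNA, the next 2 to members that rose there, and the last pair to neighbouring genes that were dim in OCI-Ly7 alone.
ISG15, chr1:1013359-1013418, plus strand: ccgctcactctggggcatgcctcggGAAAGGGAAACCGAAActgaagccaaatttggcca
MX1, chr21:41420544-41420582, plus strand: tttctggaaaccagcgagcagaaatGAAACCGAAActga
EIF2AK2, chr2:37156956-37157011, minus strand: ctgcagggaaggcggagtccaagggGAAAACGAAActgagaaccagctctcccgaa
TRIM5, chr11:5685067-5685126, minus strand: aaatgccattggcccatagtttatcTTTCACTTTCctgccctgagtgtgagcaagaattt
BST2, chr19:17405726-17405785, minus strand: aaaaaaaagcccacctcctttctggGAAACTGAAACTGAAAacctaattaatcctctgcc
ISG20, chr15:88638922-88638981, plus strand: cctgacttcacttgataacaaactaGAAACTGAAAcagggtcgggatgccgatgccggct
DTX3L, chr3:122564307-122564362, plus strand: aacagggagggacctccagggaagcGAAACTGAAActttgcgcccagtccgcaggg
PARP9, chr3:122564307-122564366, minus strand: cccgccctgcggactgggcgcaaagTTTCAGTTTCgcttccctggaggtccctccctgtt

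In the ISG15 and BST2 windows a pair of matches overlapped, which gave the longer run of capitals. In TRIM5 and PARP9 the element lies on the opposite strand and therefore appears as its reverse complement. The first base of the element is at -113 from the start in ISG15, at -6 in EIF2AK2, at -27 in TRIM5, at -130 in BST2, at -69 in ISG20 and at 12, inside the transcript, in MX1. MX1 has 3 promoter entries. Besides the printed window, another entry holds an ISRE at -196 on the opposite strand, and the remaining entry holds none. DTX3L and PARP9 are transcribed away from each other, and the DTX3L and PARP9 windows show the same element from both sides, at -6 of DTX3L and -41 of PARP9. PARP9 has 2 promoter entries, and the entry not printed holds no ISRE. By response in Pfeiffer, described further on, the ISRE was in 4 of 8 promoters of members that fell, 2 of 3 of members that rose, 10 of 19 of tested members that were not called and 8 of 9 of members too dim to test. Members of each of these classes thus had the element. The core of the STAT binding site, TTCNNNGAA, was in 10 of 39 member promoters (25.6%) and in 9.38% of all genes with a promoter. It was in 4 of 8 promoters of members that fell (IRF9, OAS1, MX1 and SP110), 2 of 3 of members that rose (ZC3HAV1 and BST2), 3 of 19 of tested members that were not called and 1 of 9 of members not tested. The letters TTCCTAGAA, a form of the BCL6 site, were in 0 of the 39 member promoters and in 0.472% of all genes, which says only that these letters are not in these windows.

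Levels are given as log2(signal + 16), where signal is the authors' MAS5 value on a linear scale. Genes in the upper part of the array's range were tested, 9888 in all, and the lowest of them had a level of 7.91, a signal of 223.9. A member is called dim in a line if its mean on the 3 control arrays was under that level. By this rule 19 of the 50 members (38%) were dim in OCI-Ly7 and 14 (28%) in Pfeiffer, against 55% and 54.6% of all genes. 30 members were dim in neither line, 13 in both, 6 in OCI-Ly7 alone and 1, OAS3, in Pfeiffer alone. The 6 dim in OCI-Ly7 alone were IFIT5, HERC6, USP18, PARP9, DTX3L and IFI6. The 13 dim in both were DDX60, OASL, IFIT1, IFIT2, IFIT3, HERC5, RSAD2, GBP1, GBP2, XAF1, IFI44, IFI44L and CXCL10. Thus several genes that respond most strongly to interferon elsewhere, such as IFIT1, RSAD2 and IFI44L, gave little signal in these cells. CXCL10 was dim on all control arrays and entered the test through its signal on the Pfeiffer siRNA arrays. USP18 was just above the level of a dim gene on the Pfeiffer controls, at 8.02 ± 0.05 (SD, n = 3), but was not tested, so 37 members were tested and 13 were not.

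**Figure D1:**
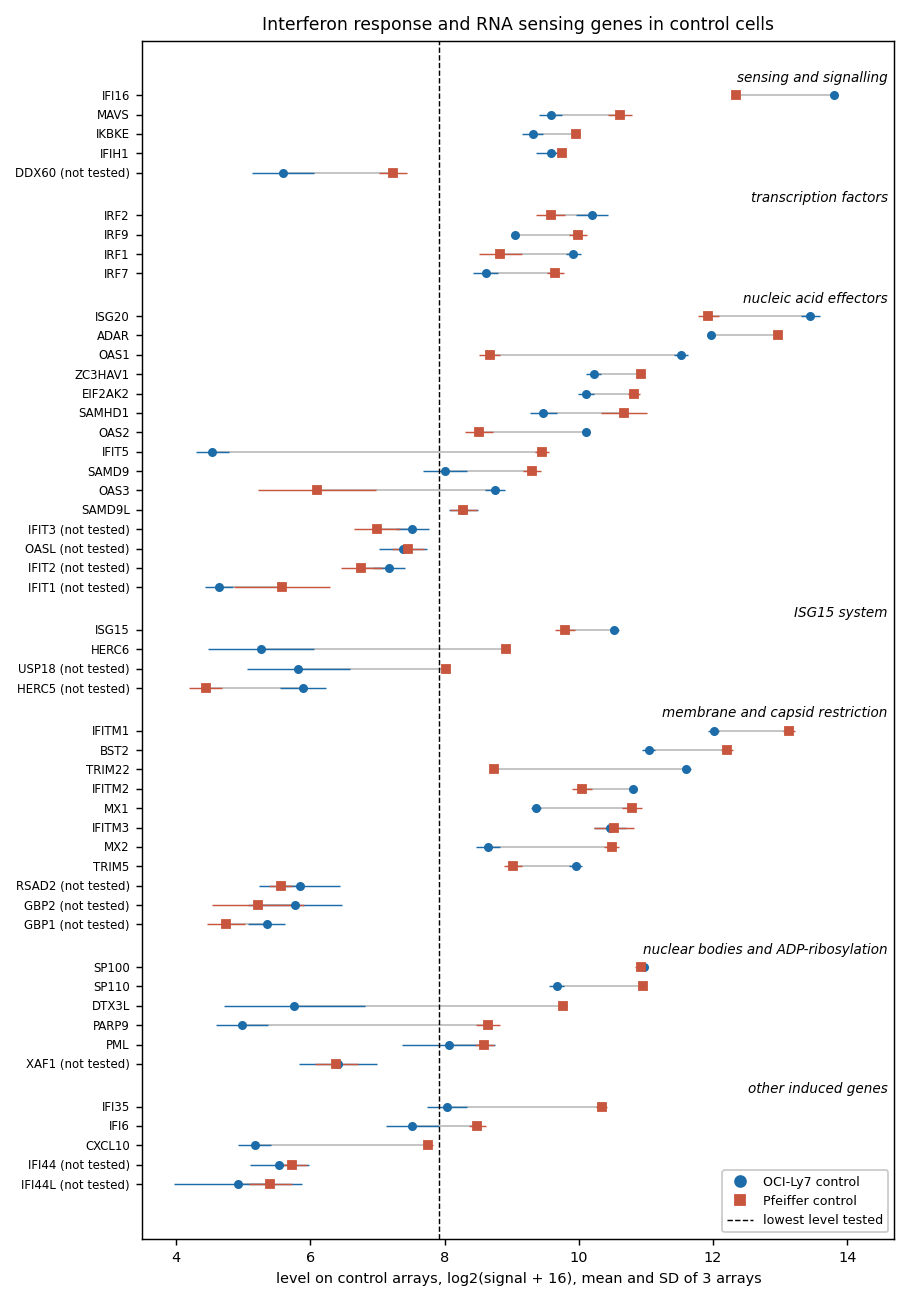
Level of each of the 50 members on control arrays, as mean and SD of 3 arrays on the log2(signal + 16) scale, grouped by role, with OCI-Ly7 as blue circles and Pfeiffer as red squares. The dashed line marks the lowest level tested, 7.91, and levels of different genes are not comparable with each other. Members of the same role lie on either side of each other: OAS1, OAS2 and OAS3 were higher in OCI-Ly7, and IFIT5, HERC6, DTX3L and PARP9 were higher in Pfeiffer, with OCI-Ly7 left of the dashed line.

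Most tested members differed in level between the lines before any BCL6 siRNA, as did most genes tested. Of the 37 tested members, 21 were higher in Pfeiffer controls than in OCI-Ly7 controls and 11 lower (limma, adjusted p under 0.05). Of all genes tested, 79.6% differed between the control groups, 42.5% as higher and 37.1% as lower in Pfeiffer, so the number of members that differed says little about this list. A gene dim in 1 line entered the test through the line where it is high and so had to differ in that direction. Of the 30 members dim in neither line, 15 were higher in Pfeiffer and 10 lower, with a median difference, Pfeiffer minus OCI-Ly7, of 0.59. Among all genes dim in neither line, 40.8% were higher and 35.5% lower, with a median of 0.05. Control arrays of the lines did not overlap for 32 of 37 members, and for 82.4% of all genes.

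The members with the largest excess in Pfeiffer, apart from IFI35, were near the bottom of the range in OCI-Ly7. Those near the bottom passed the level filter through Pfeiffer, so their differences are given as a description, with no test. IFI35, at 8.04 ± 0.30 on the OCI-Ly7 controls (SD, n = 3), was not dim there. Its difference was 2.29 (limma, adjusted p = 5.61e-10). IFIT5, which binds viral and cellular RNA ends, read 4.53, 4.29 and 4.79 on the OCI-Ly7 controls and 9.48, 9.54 and 9.33 on the Pfeiffer controls, a difference of 4.91. DTX3L, a ubiquitin ligase, read 6.04, 4.60 and 6.65 in OCI-Ly7 and 9.84, 9.69 and 9.75 in Pfeiffer, a difference of 3.99. PARP9, its partner in a complex that joins ADP-ribosylation to ubiquitin, read 4.63, 4.92 and 5.40 against 8.66, 8.83 and 8.47, a difference of 3.67. This pair, which shares the promoter printed above, was thus low together in OCI-Ly7 and well above the lowest level tested in Pfeiffer. HERC6, a relative of the ISG15 ligase, read 6.17, 4.69 and 4.97 against 8.84, 8.96 and 8.92, a difference of 3.63. CXCL10, a chemokine that attracts T cells, read 5.18, 5.40 and 4.92 against 7.69, 7.79 and 7.81, and IFI35, a partner of NMI, read 7.81, 7.94 and 8.38 against 10.36, 10.40 and 10.25. In all these members no OCI-Ly7 array reached any Pfeiffer array. The low line was dim for the members IFIT5, DTX3L, PARP9, HERC6 and CXCL10, so the sizes of their differences rest on noisy values near the background.

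The oligoadenylate synthetases and TRIM22 were the reverse. TRIM22, an antiviral ubiquitin ligase, read 11.65, 11.64 and 11.52 on the OCI-Ly7 controls and 8.70, 8.80 and 8.72 on the Pfeiffer controls, a difference of -2.86 (limma, adjusted p = 5.7e-10). OAS1, which makes the messenger that activates the nuclease RNase L, read 11.59, 11.55 and 11.40 against 8.72, 8.50 and 8.79, a difference of -2.85 (limma, adjusted p = 9.3e-12). Its relatives followed: OAS3 read 8.65, 8.93 and 8.68 against 5.16, 6.27 and 6.88, and OAS2 read 10.09, 10.09 and 10.10 against 8.47, 8.32 and 8.74. All 3 synthetases were therefore lower in Pfeiffer on every array. OAS3, dim in Pfeiffer, had entered the test through OCI-Ly7, and a second OAS2 probe set gave 9.02 in OCI-Ly7 and 9.21 in Pfeiffer. ISG20, an RNA exonuclease, read 13.36, 13.38 and 13.62 against 11.86, 11.82 and 12.11, a difference of -1.52. IFI16, a nuclear DNA sensor, read 13.83, 13.76 and 13.82 against 12.28, 12.37 and 12.36, a difference of -1.47 (limma, adjusted p = 9.96e-13).

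Among sensors and signalling genes, IFIH1 was not called, at 9.58 ± 0.22 in OCI-Ly7 and 9.75 ± 0.05 in Pfeiffer (SD, n = 3 each; difference 0.16, limma, adjusted p = 0.233). MAVS was higher in Pfeiffer, at 10.61 ± 0.18 against 9.58 ± 0.17, and so was IKBKE, a kinase that activates interferon regulatory factors, at 9.96 ± 0.06 against 9.31 ± 0.15. DDX60, a helicase that assists RNA sensors, was dim in both, at 5.59 ± 0.46 and 7.23 ± 0.21. The transcription factors split evenly. IRF7, which induces interferon genes, and IRF9 were higher in Pfeiffer by 1.04 and 0.94, and IRF1, an activator of antiviral and antigen presentation genes, and IRF2, which competes with it, differed by -1.10 and -0.61.

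Of the 11 tested effectors that act on nucleic acid, 6 were higher in Pfeiffer and 4 lower, these being the synthetases and ISG20. Of all genes tested, 42.5% were higher and 37.1% lower. IFIT5, dim in OCI-Ly7, and OAS3, dim in Pfeiffer, are in these counts and had to differ in the direction found. ADAR, which edits adenosine in duplex RNA and so marks it as the cell's own, read 11.97 ± 0.06 in OCI-Ly7 and 12.96 ± 0.03 in Pfeiffer. EIF2AK2 (PKR), which stops translation on meeting duplex RNA, differed by 0.72, ZC3HAV1, which directs CpG-rich RNA to decay, by 0.71, the nucleotide hydrolase SAMHD1 by 1.20 and the poxvirus restriction factor SAMD9 by 1.29. Its neighbour SAMD9L read 8.28 in both lines. ISG15 was lower in Pfeiffer, at 9.79 ± 0.15 against 10.53 ± 0.07, whereas USP18, which removes ISG15 from proteins and dampens the receptor, read 5.82 ± 0.77 in OCI-Ly7 and 8.02 ± 0.05 in Pfeiffer. Of the proteins that hold viruses at membranes and capsids, MX2 differed by 1.84, MX1 by 1.43, BST2 (tetherin) by 1.15 and IFITM1 by 1.12 in favour of Pfeiffer, and IFITM2 by -0.76 and the capsid-binding TRIM5 by -0.93. IFITM3, at 10.46 ± 0.24 and 10.52 ± 0.30, was not called (limma, adjusted p = 0.691). The probe sets of IFITM2 and IFITM3 are of a kind that can bind related transcripts, so these genes may share signal. Of the nuclear body proteins, SP110 was higher in Pfeiffer by 1.28, and SP100 (difference -0.05) and PML (0.54) were not called. With its probe sets averaged, PML was called as higher in Pfeiffer (0.51, limma, adjusted p = 0.0131). IFI6, a small protein of internal membranes, was dim in OCI-Ly7, at 7.52 ± 0.40 against 8.49 ± 0.13 in Pfeiffer (SD, n = 3 each). It passed the level filter through Pfeiffer, so its difference of 0.97 is a description.

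BCL6 itself fell in both lines, by 0.42 ± 0.08 on the log2 scale in OCI-Ly7, which left 74.6% (limma, adjusted p = 0.00731), and by 0.96 ± 0.08 in Pfeiffer, which left 51.3% (limma, adjusted p = 5.31e-07). Other BCL6 probe sets were read in a separate limma fit over probe sets, described further on. There another probe set gave -0.49 in OCI-Ly7 and -1.29 in Pfeiffer (limma, adjusted p = 0.00732 and 1.01e-07). The remaining probe set gave -0.97 in Pfeiffer (limma, adjusted p = 2.13e-06). In OCI-Ly7 it gave -0.17 and was not called (adjusted p = 0.429), so the fall there was not called in every probe set. Depth of knockdown thus differed between the lines together with every difference given below. Correlations over all genes were 0.916 to 0.924 within a group and 0.824 to 0.833 between the lines, and no array stood apart. Genes of the B-cell identity behaved differently in the lines. Of 9 B-cell markers 8 were measured and none of these was dim in both lines, and their summed signal was 56569 to 58438 on control and 66598 to 68425 on siRNA arrays in OCI-Ly7, and 44807 to 45328 on control and 29862 to 33940 on siRNA arrays in Pfeiffer. The siRNA arrays were thus above the controls in OCI-Ly7 and below them in Pfeiffer. All 6 myeloid markers measured (summed signal 158 to 319 over the Pfeiffer arrays and 189 to 286 over those of OCI-Ly7), 4 of 6 of plasmacytoid dendritic cells, 8 of 9 of T and NK cells and 4 of 7 stromal and epithelial markers were dim in both lines. The T and NK cell sum, in which CD8A was not dim, was 11738 to 13298 on control and 14148 to 15605 on siRNA arrays in Pfeiffer, and 378 to 509 and 405 to 450 in OCI-Ly7. The stromal and epithelial sum, in which COL1A1, EPCAM and KRT18 were not dim, was 17640 to 18735 on control and 15430 to 16654 on siRNA arrays in Pfeiffer, and 482 to 682 and 478 to 563 in OCI-Ly7. The plasmacytoid dendritic cell sum, in which GZMB and TCF4 were not dim, was 18283 to 19453 on control and 17438 to 19315 on siRNA arrays in Pfeiffer, and 13534 to 14225 and 12650 to 13854 in OCI-Ly7. The part of these markers and of the depth of knockdown in the results was not tested. In such bulk RNA, fewer cells of a kind and less RNA per cell cannot be told apart.

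After BCL6 siRNA in Pfeiffer, many interferon response genes fell and a few rose. As given above, the summed B-cell markers were also lower on the siRNA arrays of this line. Of the 37 tested members, 11 fell, namely TRIM22, MX1, OAS1, IKBKE, ISG15, IRF9, TRIM5, OAS2, IRF7, SP110 and EIF2AK2, and 3 rose, namely ISG20, ZC3HAV1 and BST2 (limma, adjusted p under 0.05 over all genes tested). Of all genes tested 16.2% were called in this line, 8.31% of them as lower and 7.9% as higher, against 14 of 37 members. The median difference was -0.32 over the members and 0.00 over all genes tested, and 30 of 37 members were below 0. For 24 of 37 members siRNA and control values were separate, for 20 of them in the lower direction, whereas 33% of all genes had no overlap and 16.9% none in the lower direction. Taken array by array, the median member was at -0.28, -0.40 and -0.25 against its control mean on the 3 siRNA arrays, and 31, 31 and 25 of the 37 members were below that mean.

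**Figure D2:**
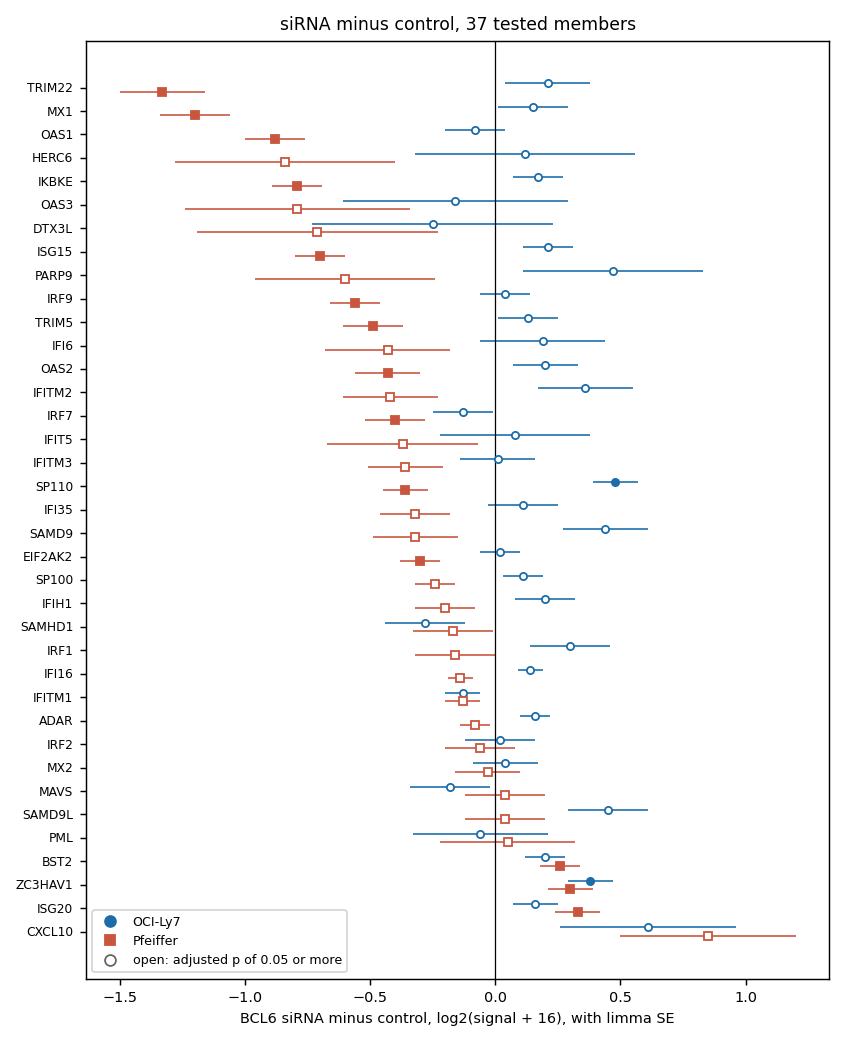
BCL6 siRNA minus control on the log2(signal + 16) scale for the 37 tested members, ordered by the difference in Pfeiffer, with OCI-Ly7 as blue circles, Pfeiffer as red squares, bars of 1 limma SE and filled symbols for members with an adjusted p under 0.05. Most red squares are left of 0, from -1.33 for TRIM22, and most blue circles are close to or right of 0, and CXCL10, HERC6, OAS3, DTX3L and PARP9 have the wide bars of dim genes.

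The restriction factors gave the largest falls. TRIM22 read 8.70, 8.80 and 8.72 on Pfeiffer controls and 6.81, 7.80 and 7.62 with BCL6 siRNA, so that every siRNA array was below every control and the first siRNA array was the lowest. The difference was -1.33 ± 0.17 (SE), which left 39.8% of the signal (limma, adjusted p = 9.55e-05). MX1, a dynamin-like GTPase that traps the nucleocapsids of RNA viruses, read 10.92, 10.62 and 10.84 on control arrays and 9.42, 9.47 and 9.90 on siRNA arrays, again without overlap. It fell by 1.20 ± 0.14 (SE) on the log2 scale to 43.6% (limma, adjusted p = 4.05e-05). These 2 were the called members with a change of at least 2-fold. TRIM5 read 8.93, 9.18 and 8.94 against 8.69, 8.59 and 8.32, a difference of -0.49 ± 0.12 (SE) with no overlap (limma, adjusted p = 0.0129). The call of TRIM5 was lost without control array 2 (adjusted p = 0.0589), and its sign turned to 0.14 (limma, adjusted p = 0.783) when a second, dim TRIM5 probe set was averaged in.

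BST2, which tethers budding virus to the cell surface, rose instead. It read 12.25, 12.10 and 12.24 on control arrays and 12.46, 12.40 and 12.51 on siRNA arrays, a difference of 0.26 ± 0.08 (SE; limma, adjusted p = 0.0285). The groups were separate but close, and the call was lost without control array 2 or without siRNA arrays 1 or 3 (adjusted p up to 0.119). The IFITM proteins, which hinder fusion of viral and cell membranes, were not called: the differences were -0.13 ± 0.07 for IFITM1, -0.42 ± 0.19 for IFITM2 and -0.36 ± 0.15 for IFITM3 (SE), with adjusted p of 0.26, 0.163 and 0.118 in limma. MX2, the relative of MX1 that acts on retroviral capsids, read 10.50, 10.37 and 10.60 on control arrays and 10.49, 10.37 and 10.50 on siRNA arrays. Its difference of -0.03 has a 95% confidence interval of -0.32 to 0.25, which does not reach the difference of MX1.

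Among nucleic acid effectors, 3 fell and 2 rose of 11 tested. OAS1 read 8.72, 8.50 and 8.79 on control arrays and 8.03, 7.55 and 7.80 on siRNA arrays, so the groups were well apart. The difference of -0.88 ± 0.12 (SE) left 54.4% (limma, adjusted p = 0.000164), and a second OAS1 probe set gave -0.71 (limma, adjusted p = 0.000426 over probe sets). Values over probe sets come from a separate fit of the upper part of all probe sets with 1 symbol, 20546 in number and with a lowest level of 7.24, of which 6.33% were called lower and 6.11% higher in Pfeiffer, and 0.691% and 0.92% in OCI-Ly7. OAS2 read 8.47, 8.32 and 8.74 against 8.23, 7.77 and 8.23, a difference of -0.43 ± 0.13 (SE; limma, adjusted p = 0.042). OAS2 did not overlap either, but its call was lost in 9 of 12 fits that left out an array (Pfeiffer control 1 or 3, Pfeiffer siRNA 2 or any of the 6 OCI-Ly7 arrays, adjusted p up to 0.172). Its other probe sets gave -0.78 (limma, adjusted p = 0.000313 over probe sets) and -0.17 (adjusted p = 0.679). OAS3, dim in this line, read 5.16, 6.27 and 6.88 against 6.24, 5.43 and 4.27, which overlap.

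EIF2AK2 read 10.79, 10.93 and 10.76 on control arrays and 10.55, 10.46 and 10.58 on siRNA arrays, a difference of -0.30 ± 0.08 (SE) that left 81.4% (limma, adjusted p = 0.0246). The fall of this kinase was small beside that of OAS1 and was not called without Pfeiffer control 1, control 2 or siRNA 2 (adjusted p up to 0.106), nor with all its probe sets averaged (-0.28, limma, adjusted p = 0.0768). ISG20 read 11.86, 11.82 and 12.11 against 12.25, 12.29 and 12.25, a difference of 0.33 ± 0.09 (SE; limma, adjusted p = 0.0178), and its second probe set gave 0.49 (limma, adjusted p = 2.81e-05 over probe sets). All siRNA arrays of ISG20 were above all controls, although the call was lost without control 1, control 2 or siRNA 2 (adjusted p up to 0.0777). ZC3HAV1 read 10.94, 10.91 and 10.94 against 11.09, 11.15 and 11.44, a difference of 0.30 ± 0.09 (SE; limma, adjusted p = 0.0257). The third siRNA array of ZC3HAV1 was the highest, and without it or any of the 3 controls the call was lost (adjusted p up to 0.0822), as it was with all probe sets of the gene averaged (0.25, limma, adjusted p = 0.234). ADAR read 12.98, 12.93 and 12.98 against 12.85, 12.78 and 13.03, which overlap, and differed by -0.08 ± 0.06 (SE; limma, adjusted p = 0.462). The differences of SAMHD1 (-0.17), SAMD9 (-0.32), SAMD9L (0.04) and IFIT5 (-0.37) were not called either.

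ISG15 read 9.89, 9.86 and 9.61 on control arrays and 8.96, 9.28 and 9.03 on siRNA arrays. The groups were separate and ISG15 fell by 0.70 ± 0.10 (SE) on the log2 scale, which left 61.7% (limma, adjusted p = 0.000173). HERC6 read 8.84, 8.96 and 8.92 against 8.09, 7.93 and 8.18, with no overlap and a difference of -0.84, but was not called (limma, SE 0.44, adjusted p = 0.233). Its SE comes from all 12 arrays, among which those of OCI-Ly7 are dim and spread over 4.38 to 6.40, and a fit on the Pfeiffer arrays alone called it. The same fit also called DTX3L, PARP9 and IFI35 as lower, which the fit over both lines did not. It lost the calls of OAS2 (limma, adjusted p = 0.137) and ZC3HAV1 (adjusted p = 0.0501). CXCL10 was called as higher in that fit, but it had passed the level filter only through its Pfeiffer siRNA arrays. Its call therefore gives no support for a rise.

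Of the sensing and signalling genes, IKBKE alone fell. It read 9.89, 10.01 and 9.99 on control arrays and 9.15, 9.26 and 9.13 on siRNA arrays, a tight separation, with a difference of -0.79 ± 0.10 (SE) that left 58% (limma, adjusted p = 5.55e-05). A second IKBKE probe set gave only -0.22 (limma, adjusted p = 0.134 over probe sets). IFIH1 read 9.70, 9.80 and 9.74 against 9.71, 9.59 and 9.34, which overlap (difference -0.20, limma, adjusted p = 0.316). MAVS read 10.81, 10.45 and 10.57 against 10.62, 10.27 and 11.06, which overlap as well (0.04, adjusted p = 0.913). IFI16 read 12.28, 12.37 and 12.36 against 12.28, 12.13 and 12.18, a difference of -0.14 ± 0.05 (SE) that missed the threshold (limma, adjusted p = 0.0811). Its other 2 probe sets passed it, at -0.20 and -0.24 (limma, adjusted p = 0.0264 and 0.0274 over probe sets).

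Of the transcription factors, IRF9 and IRF7 fell and IRF1 and IRF2 were not called. IRF9 read 9.90, 9.94 and 10.14 on control arrays and 9.54, 9.47 and 9.28 on siRNA arrays. It fell by 0.56 ± 0.10 (SE) on the log2 scale to 67.8%, with no overlap (limma, adjusted p = 0.00155). IRF7 read 9.70, 9.50 and 9.74 against 9.35, 9.15 and 9.23, a difference of -0.40 ± 0.12 (SE; limma, adjusted p = 0.0356), which was lost without control 1, control 3, siRNA 2 or siRNA 3 (adjusted p up to 0.122). IRF1 read 9.14, 8.51 and 8.83 against 8.53, 8.43 and 9.02, so that its groups overlapped (difference -0.16, limma, adjusted p = 0.562). IRF2 differed by -0.06 (limma, adjusted p = 0.845).

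SP110, a nuclear body protein linked to defence against intracellular bacteria, read 10.89, 10.97 and 10.99 on control arrays and 10.61, 10.55 and 10.62 on siRNA arrays. The difference of -0.36 ± 0.09 (SE) left 78% (limma, adjusted p = 0.018) and was lost without control 2, control 3 or siRNA 2 (adjusted p up to 0.0634). All 5 probe sets of SP110 were below 0 in Pfeiffer, between -0.27 and -0.41. SP100 missed the threshold at -0.24 ± 0.08 (SE; limma, adjusted p = 0.0546), whereas 2 of its other probe sets passed it, at -0.23 and -0.62 (limma, adjusted p = 0.0156 and 0.037 over probe sets). PML, which organises these bodies, differed by 0.05. DTX3L read 9.84, 9.69 and 9.75 against 9.11, 9.04 and 8.97, and PARP9 read 8.66, 8.83 and 8.47 against 7.89, 8.04 and 8.22. Neither overlapped, and neither was called (limma, adjusted p = 0.357 and 0.294). CXCL10, already mentioned for its low controls, read 7.69, 7.79 and 7.81 against 8.74, 8.40 and 8.71, a difference of 0.85 ± 0.35 (SE) that was not called (limma, adjusted p = 0.117). IFI35 (-0.32) and IFI6 (-0.43) were not called.

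**Figure D3:**
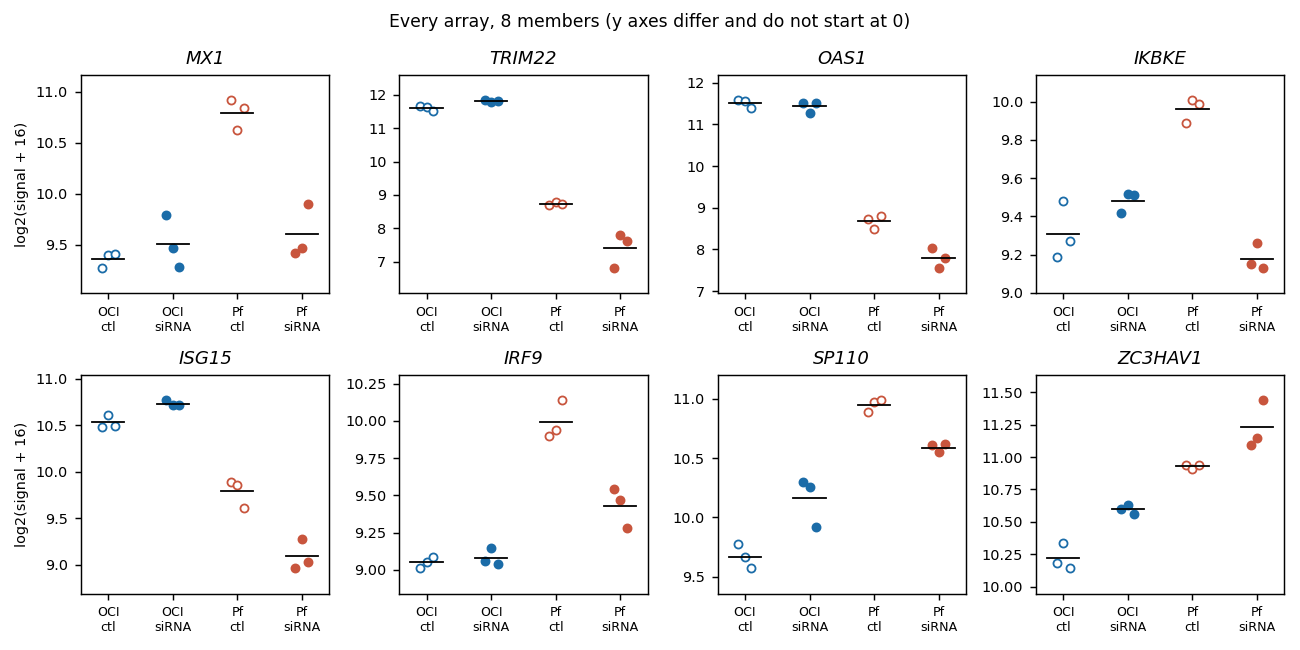
Level on every array, as log2(signal + 16), for 8 members called in Pfeiffer, with control arrays as open and BCL6 siRNA arrays as filled circles, OCI-Ly7 (OCI) in blue, Pfeiffer (Pf) in red and a black line at each group mean. In MX1, TRIM22, OAS1, IKBKE, ISG15 and IRF9 the Pfeiffer siRNA arrays lie below the controls, SP110 goes up in OCI-Ly7 and down in Pfeiffer, and ZC3HAV1 goes up in both.

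Of the 14 members called in Pfeiffer, MX1, TRIM22, OAS1, IKBKE, ISG15 and IRF9 kept their call in each of the 12 fits that left out 1 array. The count of calls was 9 without Pfeiffer control 1 and 8 without Pfeiffer control 2. Of the members that fell, 10 further probe sets were not dim in both lines, all 10 were below 0 in Pfeiffer and 4 were called. Of all probe sets tested, 6.33% were called lower in this line. The second TRIM5 probe set, dim in both lines and so not among the 10, gave 0.77. These probe sets were read on the same arrays as the calls, so their count is a description. The fall also touched genes from either side of the baseline difference. Of the 11, EIF2AK2, IKBKE, IRF7, IRF9, MX1 and SP110 were higher in Pfeiffer than in OCI-Ly7 on control arrays, and ISG15, OAS1, OAS2, TRIM22 and TRIM5 were lower. The baseline and the siRNA comparisons use the same control arrays, so this is a description. In MX1, the Pfeiffer siRNA arrays averaged 9.60 ± 0.27 and the OCI-Ly7 controls 9.36 ± 0.08 (SD, n = 3 each).

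The 13 members not tested gene by gene were dim in both lines, apart from USP18, which was at 8.02 on the Pfeiffer controls. In Pfeiffer 7 of the 13, namely DDX60, OASL, IFIT1, IFIT2, USP18, IFI44 and IFI44L, had siRNA arrays that all lay below the controls, with differences of -0.29 to -1.35. The same held for 16.9% of the 9888 tested genes. A share for genes as dim as these was not computed, so the count is a description. In OCI-Ly7 the siRNA arrays of USP18 and XAF1 all lay below the controls and those of IFIT2 all above. USP18 read 8.03, 7.97 and 8.06 on control arrays and 7.13, 7.07 and 7.52 on siRNA arrays. IFIT2, which binds viral RNA, read 6.83, 7.03 and 6.42 against 5.53, 6.22 and 4.47. IFIT1, which binds RNA without cap methylation, read 6.38, 5.41 and 4.97 against 4.45, 4.68 and 4.39, in the range where MAS5 values scatter. With no filter on dim genes, 0 of the 13 were called for siRNA against control in limma, and those closest were IFIT2 (-1.35, adjusted p = 0.0514) and IFIT1 (-1.08, adjusted p = 0.0845) in Pfeiffer. At an unadjusted p under 0.05, DDX60 (-0.82) and IFI44L (-1.03) joined these in Pfeiffer, and USP18 (-1.08) and XAF1 (-0.87), an antagonist of an inhibitor of apoptosis, were the members in OCI-Ly7. The fit over probe sets, whose lowest level is lower, held probe sets of IFIT2, IFIT3, OASL and USP18, and called those of IFIT2 and IFIT3. There IFIT2 fell in Pfeiffer (-1.35 ± 0.36, SE; limma, adjusted p = 0.0222 over probe sets), and its effect differed between the lines (-2.04, adjusted p = 0.0253). IFIT3, a partner of IFIT1 and IFIT2 in RNA binding, has a pair of probe sets that disagree. The brighter one overlapped in both lines, with 0.20 in OCI-Ly7 and -0.13 in Pfeiffer. The dimmer one read 6.66, 7.31 and 7.04 on OCI-Ly7 controls against 8.50, 8.20 and 8.30 on siRNA arrays, a difference of 1.33 ± 0.24 (SE; limma, adjusted p = 0.011 over probe sets). In Pfeiffer it read 7.08, 6.65 and 6.75 against 5.70, 6.16 and 5.87, a difference of -0.92 ± 0.24 (SE; limma, adjusted p = 0.0204 over probe sets). It was thus above its controls on every siRNA array of OCI-Ly7 and below them on every one of Pfeiffer, and its effect differed between the lines by -2.24 ± 0.34 (SE; limma, adjusted p = 0.00098 over probe sets). These values lie close to the lowest level tested, and which of the IFIT3 probe sets follows its transcript was not tested. The differences in Pfeiffer of RSAD2 (viperin, which makes a chain-terminating nucleotide, -0.20), the guanylate-binding GTPases GBP1 (0.09) and GBP2 (0.33), and the ISG15 ligase HERC5 (0.41), and of XAF1 (-0.14), came from arrays that overlapped.

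In OCI-Ly7 few members were called. SP110 and ZC3HAV1 rose, and 0 of the 37 tested members fell (limma, adjusted p under 0.05). PML differed by -0.06 with its chosen probe set (limma, adjusted p = 0.952). A dimmer PML probe set gave -1.20 (limma, adjusted p = 0.0492 over probe sets), and the other PML probe sets tested were not called. Of all genes tested 2.68% were called in this line, 1.69% as higher and 0.991% as lower. At an unadjusted p under 0.05, 7 of the 37 members were higher and 0 lower, against 9.48% and 6.02% of all genes tested. The median difference was 0.14 over the members and 0.01 over all genes tested, with 29 of 37 members above 0. On the 3 siRNA arrays the median member was at 0.14, 0.12 and 0.16 against its control mean. Arrays did not overlap for 13 of 37 members, 12 in the higher direction, against 22.9% of all genes and, in the higher direction, 1329 of 9888.

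SP110 read 9.78, 9.67 and 9.57 on OCI-Ly7 control arrays and 10.30, 10.26 and 9.92 on siRNA arrays. Every siRNA array was above every control, and the difference was 0.48 ± 0.09 (SE), a signal of 140% (limma, adjusted p = 0.0137). All 5 SP110 probe sets were above 0, between 0.41 and 0.63. ZC3HAV1 read 10.18, 10.34 and 10.14 against 10.60, 10.63 and 10.56, with no overlap, a difference of 0.38 ± 0.09 (SE; limma, adjusted p = 0.0304) and, in a second probe set, 0.14 (limma, adjusted p = 0.573 over probe sets), and it was not called with its probe sets averaged (0.10, adjusted p = 0.811). Both calls depended on single arrays: 0 members were called without OCI-Ly7 control 3, siRNA 1 or siRNA 2, and 1 without control 1 or siRNA 3, with adjusted p up to 0.0792 for SP110 and 0.105 for ZC3HAV1.

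Several further members were above their controls on every OCI-Ly7 siRNA array without passing the test. The largest were SAMD9L, which read 8.05, 8.47 and 8.33 against 8.83, 8.73 and 8.65 (difference 0.45, limma, adjusted p = 0.157), and SAMD9, which read 8.02, 8.34 and 7.67 against 8.43, 8.56 and 8.38 (0.44, adjusted p = 0.225). IFITM2 read 10.87, 10.79 and 10.76 against 11.20, 11.01 and 11.28 (0.36, limma, adjusted p = 0.406). A fit on the OCI-Ly7 arrays alone called IFITM2 as higher (limma, adjusted p = 0.026). ISG15 read 10.48, 10.61 and 10.49 against 10.77, 10.72 and 10.72 (0.21, limma, adjusted p = 0.327), ADAR 11.91, 11.99 and 12.01 against 12.21, 12.11 and 12.08 (0.16, adjusted p = 0.24), and IRF1 9.92, 9.82 and 10.03 against 10.19, 10.17 and 10.32 (0.30, adjusted p = 0.408). In TRIM22 too, at 11.65, 11.64 and 11.52 against 11.85, 11.79 and 11.81, the groups were close but did not overlap. Of the other members that fell in Pfeiffer, MX1, OAS1 and IKBKE overlapped here. MX1 read 9.27, 9.40 and 9.41 against 9.79, 9.47 and 9.28 (0.15, limma, adjusted p = 0.691), OAS1 11.59, 11.55 and 11.40 against 11.51, 11.27 and 11.52 (-0.08, adjusted p = 0.818), and IKBKE 9.19, 9.48 and 9.27 against 9.42, 9.52 and 9.51 (0.17, adjusted p = 0.449).

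Of the regulators and sensors, IRF1 (above) and IFI16, at 0.14 ± 0.05 (SE; limma, adjusted p = 0.187), were above their controls on every siRNA array of this line without being called. The others overlapped their controls, apart from MAVS. IRF9 read 9.01, 9.05 and 9.09 against 9.06, 9.15 and 9.04 (0.04, limma, adjusted p = 0.926), IRF7 8.42, 8.63 and 8.77 against 8.39, 8.59 and 8.45 (-0.13, adjusted p = 0.687), and EIF2AK2 10.20, 10.13 and 9.97 against 10.22, 10.01 and 10.14 (0.02, adjusted p = 0.945). IFIH1 read 9.64, 9.76 and 9.34 against 9.68, 9.70 and 9.95 (0.20, limma, adjusted p = 0.504), and these overlap. MAVS read 9.54, 9.44 and 9.77 against 9.41, 9.40 and 9.40 (-0.18, adjusted p = 0.653), the only tested member whose siRNA arrays were all below its controls. TRIM5 read 10.07, 9.89 and 9.90 against 10.14, 9.92 and 10.20 (0.13), OAS2 10.09, 10.09 and 10.10 against 10.36, 10.27 and 10.27 (0.20), BST2 11.11, 10.92 and 11.09 against 11.26, 11.10 and 11.37 (0.20), and ISG20 13.36, 13.38 and 13.62 against 13.68, 13.71 and 13.45 (0.16). None of these 4 was called in OCI-Ly7, and OAS2 alone of them was above its controls on every siRNA array.

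The siRNA effect itself differed between the lines for 9 of 37 members, all with the lower value in Pfeiffer (limma, difference of the siRNA effects, adjusted p under 0.05). Of all genes tested 8.8% were called in this comparison, 5.06% as lower in Pfeiffer and 3.74% as higher. The median of this difference was -0.43 over the members and -0.02 over all genes, and 31 of 37 members were below 0. Of the 11 members that fell in Pfeiffer, 8 were among the 9: TRIM22 (-1.54 ± 0.25, adjusted p = 0.00112), MX1 (-1.35 ± 0.20, adjusted p = 0.000668), IKBKE (-0.96 ± 0.14, adjusted p = 0.000493), ISG15 (-0.90 ± 0.14, adjusted p = 0.000779), SP110 (-0.84 ± 0.13, adjusted p = 0.00105), OAS1 (-0.79 ± 0.17, adjusted p = 0.00964), TRIM5 (-0.62 ± 0.17, adjusted p = 0.0357) and IRF9 (-0.60 ± 0.14, adjusted p = 0.0176), with SE from limma. Of the 37, SP110 was the member called in both lines in opposite directions. The ninth was IFI16, whose difference of -0.28 (limma, adjusted p = 0.0249) joined 0.14 in OCI-Ly7 to -0.14 in Pfeiffer, neither of them called alone. OAS2 (-0.63, limma, adjusted p = 0.0526), EIF2AK2 (-0.32, adjusted p = 0.113) and IRF7 (-0.27, adjusted p = 0.378) were not shown to differ between the lines. ZC3HAV1, which rose in both lines, and BST2 and ISG20 differed by -0.08, 0.06 and 0.17 (limma, adjusted p = 0.764, 0.79 and 0.462). Leaving out 1 array gave 6 to 11 members called, and IKBKE, ISG15, MX1, OAS1, SP110 and TRIM22 were called in each such fit, whereas IRF9 was lost without Pfeiffer control 3 (adjusted p = 0.0536), IFI16 in 6 fits (adjusted p up to 0.0639) and TRIM5 in 7 (adjusted p up to 0.0926) and also with its probe sets averaged (-0.19, adjusted p = 0.813).

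Other genes of the pathway were read from 4 further lists, of interferons, receptors with JAK-STAT genes, sensors with their adaptors, and further induced genes, of which 95 genes were measured and 68 tested. In Pfeiffer 6 of the 68 rose and 10 fell, against 7.9% and 8.31% of all genes tested, with a median difference of -0.07 against 0.00. The share that rose is near that of all genes. In OCI-Ly7 2 rose, against 1.69% of all genes, the phosphorylase TYMP (1.47, limma, adjusted p = 0.037) and the proteasome activator PSME1 (0.23, adjusted p = 0.0464), and 0 fell (15 of 68 higher and 3 lower at an unadjusted p under 0.05, against 9.48% and 6.02% of all genes). TYMP lay below the lowest level tested in both OCI-Ly7 groups, at 5.14 ± 0.20 on control and 6.62 ± 0.66 on siRNA arrays (SD, n = 3 each), so the size of its rise rests on values near the background. Both OCI-Ly7 calls were lost in most fits that left out an array. The interferon genes themselves, IFNB1, IFNG, IFNA1, IFNA2 and IFNL1, were all too dim to test, IFNB1 at 4.56 on OCI-Ly7 and 4.32 on Pfeiffer controls and IFNG at 6.12 and 5.87.

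**Figure D4:**
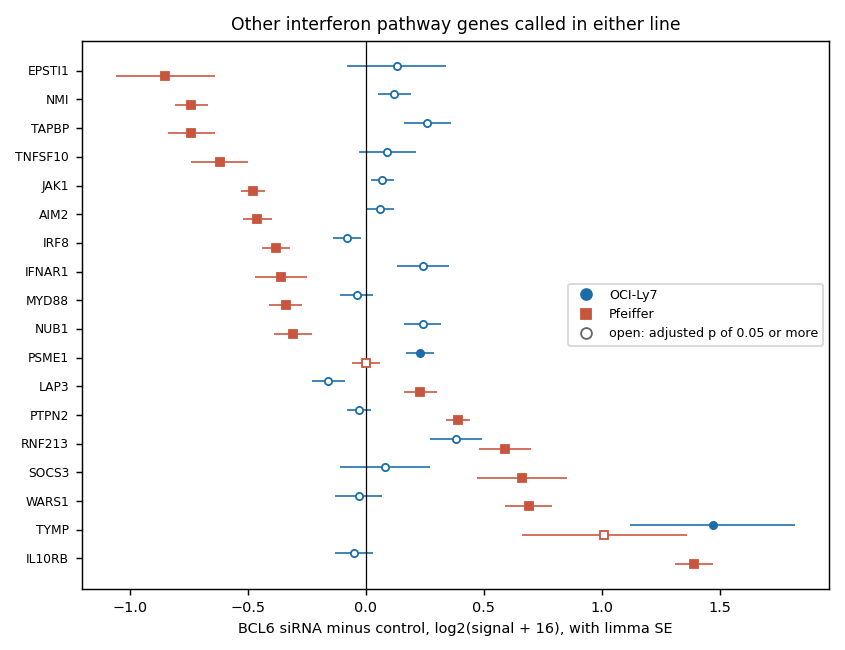
BCL6 siRNA minus control, log2(signal + 16) with bars of 1 limma SE, for the 18 other pathway genes called in either line, with OCI-Ly7 as blue circles, Pfeiffer as red squares and filled symbols for an adjusted p under 0.05. In Pfeiffer 10 of them lie left of 0, from EPSTI1 at -0.85, and IL10RB at 1.39 lies farthest right.

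Receptor and JAK-STAT genes moved in both directions in Pfeiffer, with 3 of 12 tested higher and 2 lower. JAK1, the kinase on all interferon receptors, read 13.56, 13.51 and 13.55 on control and 12.99, 13.03 and 13.17 on siRNA arrays, a difference of -0.48 ± 0.05 (SE; limma, adjusted p = 1.66e-05), but with all JAK1 probe sets averaged it was -0.17 and not called (adjusted p = 0.182). IFNAR1, a chain of the type I interferon receptor, averaged 9.01 on control and 8.65 on siRNA arrays, with no overlap (-0.36, limma, adjusted p = 0.0359), and this call was lost without Pfeiffer control 2, control 3, siRNA 2 or siRNA 3 or OCI-Ly7 siRNA 1, and with probe sets averaged (-0.26, adjusted p = 0.112). Its partner IFNAR2 was not called in either line (0.19 in Pfeiffer, limma, adjusted p = 0.144, and 0.07 in OCI-Ly7). IL10RB, a shared chain of the receptors for interleukin-10 and type III interferons, rose in Pfeiffer from 9.87, 9.68 and 9.52 to 11.07, 11.15 and 11.01 (1.39, limma, adjusted p = 2.67e-08) and read -0.05 in OCI-Ly7. The inhibitors of JAK-STAT signalling PTPN2, a phosphatase (0.39, limma, adjusted p = 0.000163, and 0.25 with probe sets averaged, adjusted p = 0.239), and SOCS3 (0.66, adjusted p = 0.0287) rose in Pfeiffer, SOCS3 with a call lost without any of the 3 controls or siRNA 1 or 3. The effect differed between the lines for IL10RB (1.44), JAK1 (-0.55), PTPN2 (0.42) and IFNAR1 (-0.60), with adjusted p of 1.97e-06, 0.000304, 0.00293 and 0.0253 in limma. IL10RB kept this call in each alternative fitted. With probe sets averaged, those of JAK1 (-0.19, limma, adjusted p = 0.344), PTPN2 (0.34, adjusted p = 0.299) and IFNAR1 (-0.28, adjusted p = 0.296) were lost, and that of IFNAR1 was lost in 5 of 12 fits that left out an array (OCI-Ly7 control 1 or 3, OCI-Ly7 siRNA 1 or 3 or Pfeiffer control 2).

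Of the other sensors and adaptors, 3 of 16 tested fell in Pfeiffer and 0 rose. They were AIM2, a sensor of cytoplasmic DNA (-0.46, limma, adjusted p = 6.26e-05), IRF8, a factor of B-cell and myeloid development (-0.38, adjusted p = 0.000308), and MYD88, the adaptor of most Toll-like receptors (-0.34, adjusted p = 0.00595). The RNA helicase RIGI, the companion of IFIH1, differed by -0.22 (limma, adjusted p = 0.379), and the kinase TBK1, the partner of IKBKE, by 0.04 (adjusted p = 0.813). Of the further induced genes, 3 of 40 tested rose and 5 fell in Pfeiffer, against 7.9% and 8.31% of all genes. Those that fell were EPSTI1 (-0.85, limma, adjusted p = 0.0144), NMI, which binds IFI35 (-0.74, adjusted p = 5.99e-06), TAPBP, which loads peptide onto MHC class I (-0.74, adjusted p = 0.000195), the death ligand TNFSF10 (-0.62, adjusted p = 0.00221) and NUB1 (-0.31, adjusted p = 0.0186). Those that rose were the tryptophan tRNA synthetase WARS1 (0.69, limma, adjusted p = 0.00035), RNF213 (0.59, adjusted p = 0.00145) and the peptidase LAP3 (0.23, adjusted p = 0.0463). With probe sets averaged NUB1 (-0.26, limma, adjusted p = 0.447), RNF213 (0.49, adjusted p = 0.0508) and LAP3 (0.23, adjusted p = 0.0672) were not called. NUB1 was also not called without Pfeiffer control 1 or siRNA 1, nor LAP3 without any Pfeiffer control, Pfeiffer siRNA 2 or 3, OCI-Ly7 control 1 or siRNA 2.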

How the data were processed

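The deposited values are log2 signals of 54675 probe sets, made by the authors with MAS5 and affy per the submitters' processing notes, which give no version. On the linear scale the 2% trimmed mean was 500.0 on every array, so no further normalization was applied. Detection calls were not used here. The platform annotation gave 1 symbol for 41091 probe sets. Tests used log2(signal + 16), which understates changes of dim genes, and limma (lmFit, eBayes with a trend) on all 12 arrays with 4 group means, 8 residual and a median of 6.7 prior degrees of freedom. Contrasts were BCL6 siRNA minus control per line, their difference, and Pfeiffer minus OCI-Ly7 controls, two-sided, with Benjamini-Hochberg adjustment over 9888 genes. SE is limma's. Members and lists were chosen with earlier results of these data known. Named were all members, genes of the other lists called after siRNA in either line, IFNAR1 and IFNAR2. Outside this rule and after their values were seen, the interferon genes, RIGI and TBK1 were named too. Genes of the other lists called only for the difference were not named. Of the other lists, 2 receptor and JAK-STAT, 7 further induced and 3 marker genes were not analysed here. A second limma fit over probe sets, and the baseline counts over genes dim in neither line, were added after seeing the data. The fit was tested on simulated data. Software: Python 3.11.15 with matplotlib 3.10.9, and R 4.3.3 with data.table (version 1.17.8) and limma 3.58.1.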

Additional observations from a re-analysis of the deposited data

Results flagged for a closer look

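The effect of BCL6 siRNA differed between the lines for 9 members by limma's test of the difference itself, given as the Pfeiffer effect minus the OCI-Ly7 effect on the log2(signal + 16) scale: TRIM22 -1.54, MX1 -1.35, IKBKE -0.96, ISG15 -0.90, SP110 -0.84, OAS1 -0.79, TRIM5 -0.62, IRF9 -0.60 and IFI16 -0.28. In SP110 the siRNA arrays lay above all controls in OCI-Ly7 and below all controls in Pfeiffer.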

How the results depend on the processing

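The number of members called after siRNA in OCI-Ly7, 2, became 1 with no filter on dim genes, with all probe sets of a gene averaged, with probe sets not ending in _s_at, _x_at or _a_at, without a trend and with the replicate block, and 0 at a minimum of 2-fold; leaving out 1 array gave 0 to 3. In Pfeiffer 14 became 9 in the upper 0.25 of genes, where 17 members were left, and 2 at a minimum of 2-fold, with 8 to 14 on leaving out 1 array. For the difference 9 became 5 with probe sets not ending in _s_at, _x_at or _a_at, where 27 members were left, and 2 at a minimum of 2-fold, with 6 to 11 on leaving out 1 array. At baseline 32 became 15 in the upper 0.25 and 21 with the restricted probe sets, and all 32 members kept their call in each fit that held them. For IFIT5, HERC6, PARP9, DTX3L, IFI6, CXCL10 and OAS3 the level filter had favoured the higher line, so their kept calls are a description. The OCI-Ly7 median of 0.14 became 0.11 with no filter and 0.12 with probe sets averaged. The Pfeiffer median of -0.32 became -0.17 in the upper 0.25. With a signal of 100 as the limit, 8 members were dim in both lines in place of 13. TRIM5 in Pfeiffer turned from -0.49 to 0.14 with probe sets averaged (limma, adjusted p = 0.783). Where no construction of the alternative shows it, the cause was not tested. Replicate numbers did not pair the arrays (deviations of same-numbered arrays correlated at -0.080 to 0.083), and with the replicate block 1, 15, 8 and 32 members were called in OCI-Ly7, Pfeiffer, the difference and at baseline. An alternative chosen after seeing the data, the probe set with the highest mean of the deposited log2 values, changed the probe set of 1 member, IFIT5. Over all alternatives that could be fitted, the 2-fold minimum left aside, 6 of 14 calls in Pfeiffer, 6 of 9 for the difference and 0 of 2 in OCI-Ly7 held throughout, and of the other pathway genes 9 of 16 in Pfeiffer, 6 of 12 for the difference and 0 of 2 in OCI-Ly7. For the difference, 16 of 68 other pathway genes were called, against 8.8% of all genes tested. Only the 12 of them that were also called in a line were followed through the alternatives. The 13 members not tested were dim in both lines, apart from USP18 on the Pfeiffer controls. Of the 13, IFIT2 in Pfeiffer (-1.35) was called over probe sets (limma, adjusted p = 0.0222) and not with all genes kept (adjusted p = 0.0514).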
